A study of Mus musculus with 26 samples.

Results

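The genes described here encode the complement and coagulation proteins that mouse liver secretes into blood. They are 40 listed genes, and each was found as 1 row among the 55401 genes of the count table through its gene identifier. Of these, 20 belong to complement and 19 to coagulation, its inhibitors and fibrinolysis, and Vtn (vitronectin), which binds proteins of both systems, was kept apart. All 40 passed the filter on low counts, by which 16238 genes were tested. Livers came from male C57BL/6 mice started on a high-fat diet at 4 weeks of age and kept on it for 18 weeks, and the series design adds high cholesterol to the diet. Untreated HFD mice (9 libraries) were compared with mice that received UCMSC-Exos, which are exosomes, small membrane vesicles, derived from UCMSCs, injected into the tail vein at intervals of 72 hours over 8 weeks (8 libraries). Both groups shared the diet, strain and sex. The labels list no injection of untreated mice, so exosomes and repeated injection cannot be told apart. Of the 26 samples in the series, 9 of another group, LSCR, were not analysed here. The labels plan 9 mice per group and give no cage, litter or date, so p-values measure the spread between these numbered samples.

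Hepatocytes make most complement and clotting proteins of plasma. In complement, recognition molecules such as mannose-binding lectins activate serine proteases, these build convertases from C2, C3, C4 and factor B, and the terminal proteins then assemble a pore in the target membrane. In coagulation, the contact proteins and the vitamin K-dependent factors form a protease cascade that ends with thrombin cutting fibrinogen to fibrin, while antithrombin, heparin cofactor II and protein C hold it in check and plasmin dissolves the clot.

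Total counts were 32.9 to 36.1 M reads per library, and the 40 genes together took 2.78 to 4.34% of them. Their share was 2.78 to 4.23% in untreated HFD (median 3.55%) and 3.24 to 4.34% in UCMSC-Exos (median 4.03%). The factor by which TMM scaling multiplies library size had medians of 1.07 in untreated HFD and 0.914 in UCMSC-Exos. It was 1.18 in UCMSC-Exos 9. A lower factor gives a higher scaled level for the same share of reads, and no fit was run without such scaling. Markers of hepatocytes were high in every library: the 11 found in the table summed to 42276 to 67032 CPM (counts per 1 M reads, scaled by effective library size) in untreated HFD and to 49355 to 87539 CPM in UCMSC-Exos. A few libraries stood apart. UCMSC-Exos 9 was the lowest of its group for 37 of the 40 genes and lay below the untreated mean for 33, so for most of these genes it lay with the untreated libraries, against its label. On the first principal component of all genes tested, the axis of largest variation, UCMSC-Exos 9 was at −49.6. Untreated HFD libraries ran from −51.7 to −2.23 there, and the other 7 treated ones from 30.6 to 63.2. In 12 interferon-stimulated genes, by contrast, UCMSC-Exos 9 lay with its own group. Their mean log2 deviation from the untreated mean was −1.37 in UCMSC-Exos 9 and −1.81 to −0.59 in the other 7 treated libraries. In untreated HFD that mean was −0.22 to 0.33. In untreated HFD 3, transcripts of exocrine pancreas summed to 12399 CPM against an untreated median of 15.4. Untreated HFD 3 or 9 was the lowest untreated library for 14 and 20 of the 40 genes, respectively. Counts and lost calls without these libraries are given beside the results.

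Most of these genes were more abundant in livers of the UCMSC-Exos group, and none passed the test in the other direction. With edgeR's quasi-likelihood test and an adjusted p threshold of 0.05 over all genes tested, 27 of the 40 were higher, where 9.73% of all genes were called higher. None of the 40 was called lower, where 10.4% of all genes were. Counting both directions, 20.2% of all genes passed, and 13 of the 40 did not. The median log2 fold change over the 40 was 0.49, against −0.02 for all genes tested, and 38 of the 40 were positive. Folds of the 27 that passed ran from 1.24 to 2.91. No gene of the 40 had all UCMSC-Exos libraries above all untreated ones, a separation that 0.493% of all genes showed (0.807% in the other direction). In 14 of 40, 7 of the 8 treated libraries lay above every untreated one. This looser separation was not counted over all genes, so whether 14 of 40 exceeds their share is not known. In 31 of the 40 the highest treated library was UCMSC-Exos 5. When 1 library was left out, the number that passed ran from 22 (without UCMSC-Exos 2, 3 or 5, where 12.2 to 13.8% of all genes passed in either direction) to 33 (without UCMSC-Exos 9, where 35.7% did), and these 33 held all 27. Without untreated HFD 3 and 9 it was 24, with 20.6% of all genes passing, and F9, Kng1 and Serpinc1 no longer passed. Without these 2 and UCMSC-Exos 9 it was 32, with 41.9% of all genes passing. With 3 surrogate variables in the model, factors estimated from the data that no label names, 9 of the 27 passed and none of the other 13 did, where 9.54% of all genes passed.

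**Figure D1:**
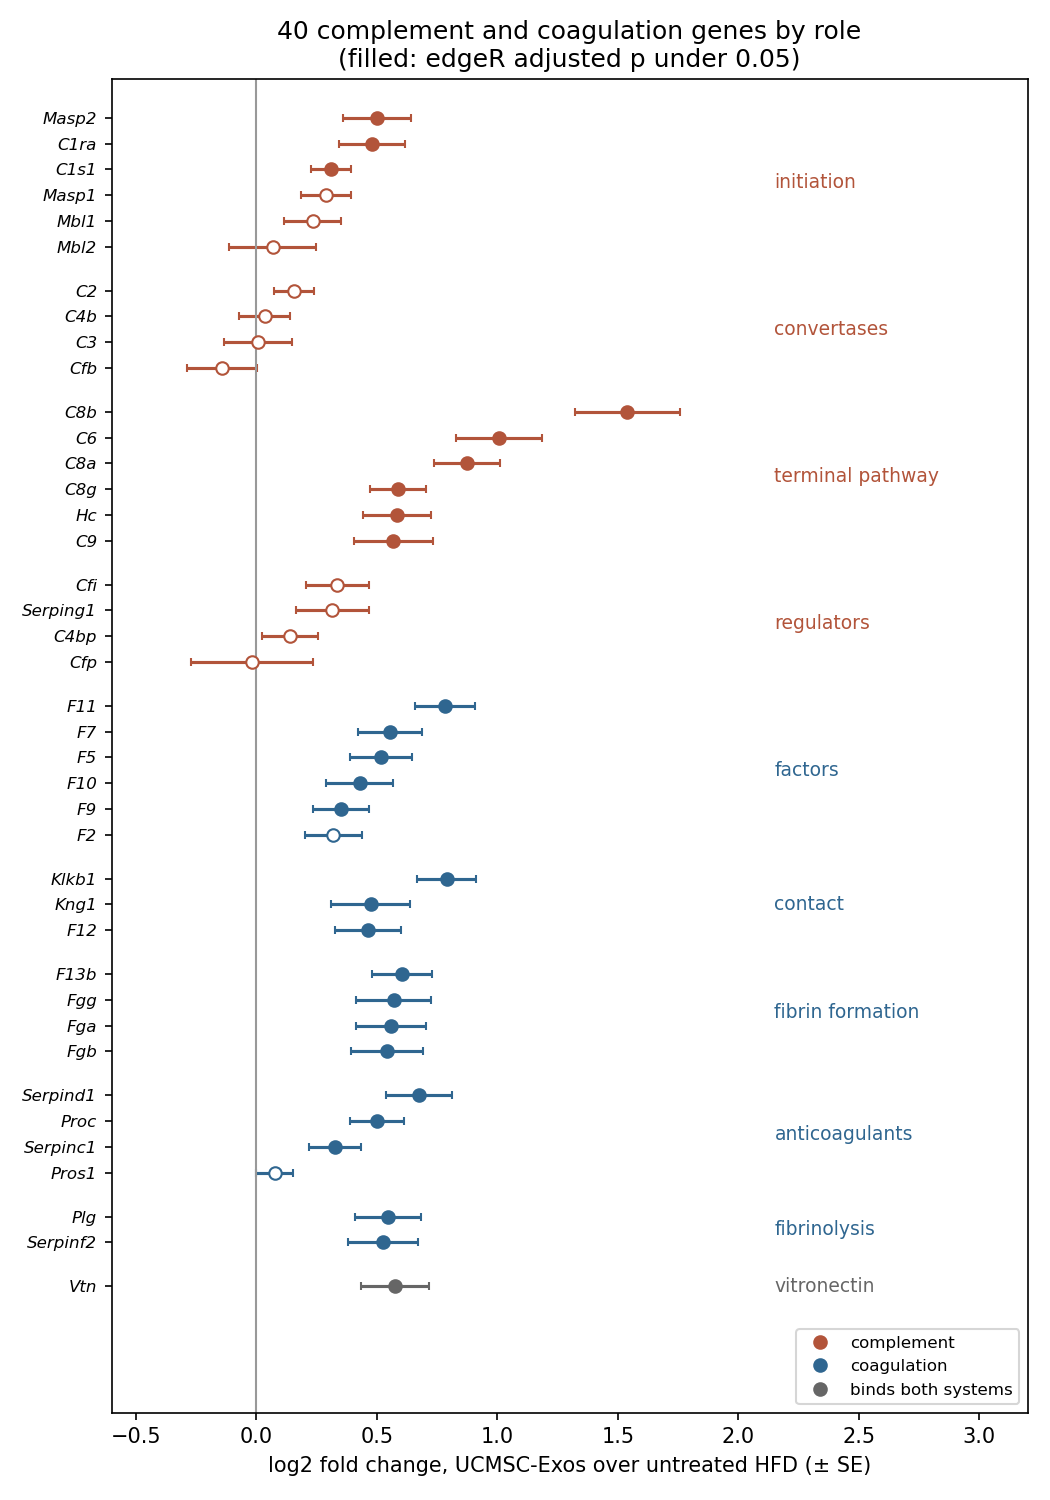
Each point is the log2 fold change of 1 gene between 8 UCMSC-Exos and 9 untreated HFD libraries, and the bar is its standard error. Filled points passed the edgeR test. The 6 terminal pathway genes are all filled, the 4 convertase and 4 regulator genes are all open, and 17 of the 19 coagulation genes are filled.

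The 6 terminal pathway genes were all higher in UCMSC-Exos, with log2 fold changes from 0.57 to 1.54 and a median of 0.73. They encode proteins of the membrane attack complex. Hc gives C5, whose larger fragment starts the assembly, and C6 joins it. C8, made of 3 chains (C8a, C8b, C8g), inserts into the membrane, and C9 forms the pore wall. C7, the remaining protein of the complex, was no member of the list. Its CPM was 4.10 at the lowest, 12.2 at the median and 23.4 at the highest in untreated HFD and 1.20, 3.12 and 11.3 in UCMSC-Exos, a log2 fold change of −1.30 ± 0.46 (SE; edgeR adjusted p = 0.0552).

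C8b, the beta chain of C8, had the highest log2 fold change of the 40. Its level in untreated HFD was 62.3 CPM at the lowest, 96.1 at the median and 133 at the highest, and in UCMSC-Exos it was 94.8, 295 and 414 CPM. All treated libraries but UCMSC-Exos 9 lay above every untreated library. The log2 fold change was 1.54 ± 0.22 (SE; edgeR adjusted p = 1.62e-04), and without UCMSC-Exos 9 it was 1.67. C6 ran from 115 through a median of 153 to 263 CPM in untreated HFD and from 214 through 397 to 464 CPM in UCMSC-Exos. All 8 treated libraries exceeded the untreated median, and 7 exceeded the highest untreated library. C6 thus rose by a log2 fold change of 1.01 ± 0.18 (edgeR adjusted p = 0.0010035). The untreated libraries themselves fell into a lower set of 5, at up to 153 CPM, and a higher set of 4, from 222 CPM. The lower set was untreated HFD 1 to 5 and the higher one 6 to 9. In UCMSC-Exos, libraries 1, 2, 3 and 5 were at 415 to 464 CPM and 6 to 9 at 214 to 380 CPM. The split thus followed the sample numbers in both groups, and its cause was not tested.

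C8a, the alpha chain, was at 364, 454 and 604 CPM (lowest, median and highest) in untreated HFD and at 454, 884 and 1127 CPM in UCMSC-Exos. The log2 difference was 0.87 ± 0.14 (SE; edgeR adjusted p = 3.88e-04). UCMSC-Exos 9, at the untreated median, was the one treated library inside the untreated range. C8g, the gamma chain, a lipocalin that binds to C8a, rose by 0.59 ± 0.12 on the log2 scale, from a median of 189.9 to 313 CPM. Hc rose by 0.58 ± 0.14, from a median of 935 to 1577 CPM. In both genes 7 of 8 treated libraries lay above all untreated ones. C9 was at 439, 489 and 723 CPM in untreated HFD and at 314, 824 and 1011 CPM in UCMSC-Exos, so that its lowest treated library, UCMSC-Exos 9, lay below every untreated one. It rose by 0.57 ± 0.16 (edgeR adjusted p = 0.0222), a call that was lost without UCMSC-Exos 5 (edgeR adjusted p = 0.0512). With surrogate variables C8a, C8b and C8g passed, while C6 had a log2 fold change of 0.71 (edgeR adjusted p = 0.0523), Hc 0.17 (0.115) and C9 0.07 (0.64).

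**Figure D2:**
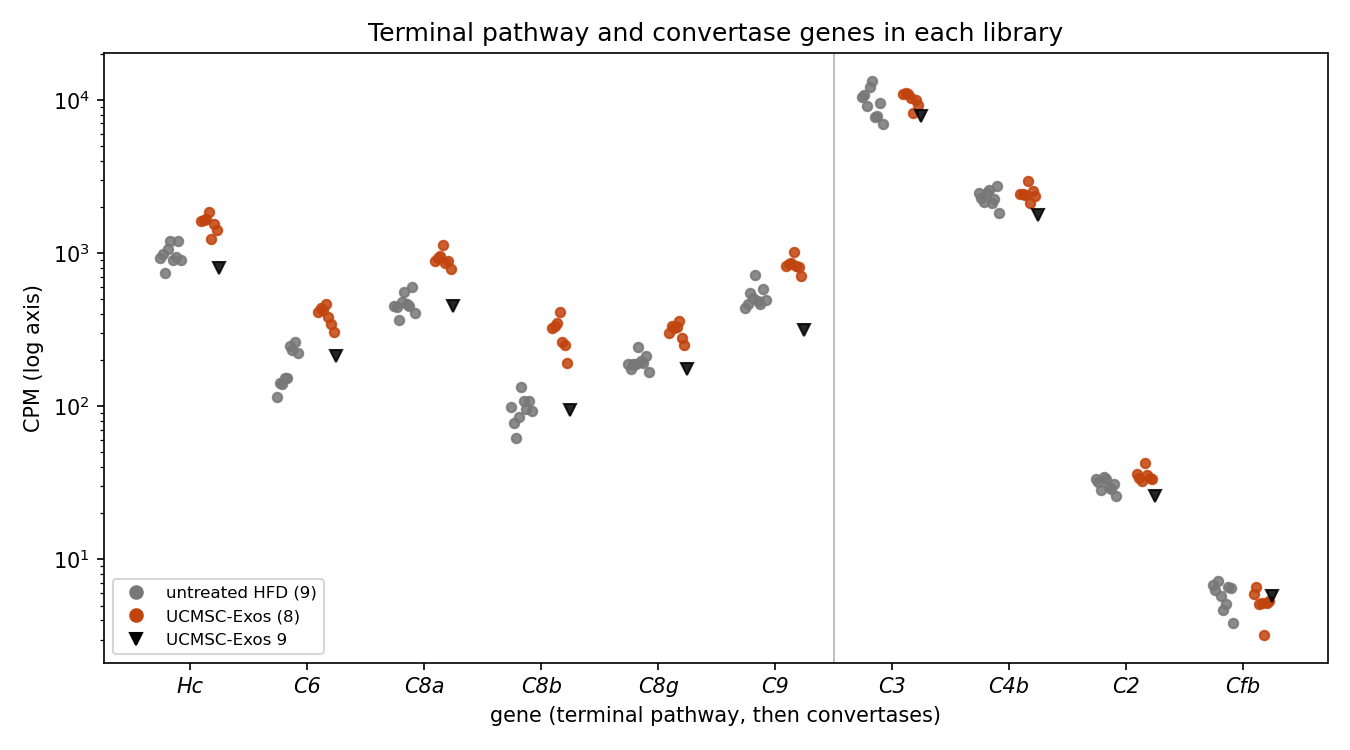
Points are CPM on a log axis in the 17 libraries for the 6 terminal pathway genes (left of the line) and the 4 convertase genes (right), with UCMSC-Exos 9 as a black triangle. For Hc, C6, C8a, C8b and C8g the other 7 treated libraries lie above all untreated ones. For C3, C4b, C2 and Cfb the groups overlap.

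On the mouse build mm10 (GRCm38), C8b spans chr4:104766317-104804548 on the forward strand and C8a chr4:104815679-104876398 on the reverse strand. C6 spans chr15:4727175-4814967. The sequence upstream of these genes is shown because they had the largest changes and moved in the same libraries. Each run is taken from RefSeq promoter windows on GRCm38.p6, reads 5′ to 3′ on the strand of the gene, and ends at the base before the gene's first base in the count table: chr4:104766067-104766316 (forward strand) for C8b, chr4:104876399-104876648 (reverse strand) for C8a and chr15:4726960-4727174 (forward strand) for C6. Capitals mark a match to the STAT half-site pair TTCNNNGAA.
C8b: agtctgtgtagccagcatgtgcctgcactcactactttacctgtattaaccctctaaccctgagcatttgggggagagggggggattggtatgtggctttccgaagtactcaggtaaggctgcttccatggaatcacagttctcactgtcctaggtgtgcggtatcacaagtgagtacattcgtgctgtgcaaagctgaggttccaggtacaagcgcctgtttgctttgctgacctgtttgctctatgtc
C8a: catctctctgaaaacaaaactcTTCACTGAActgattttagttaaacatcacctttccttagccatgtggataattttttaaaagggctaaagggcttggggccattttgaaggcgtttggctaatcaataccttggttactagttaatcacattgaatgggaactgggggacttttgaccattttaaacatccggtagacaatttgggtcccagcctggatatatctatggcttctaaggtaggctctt
C6: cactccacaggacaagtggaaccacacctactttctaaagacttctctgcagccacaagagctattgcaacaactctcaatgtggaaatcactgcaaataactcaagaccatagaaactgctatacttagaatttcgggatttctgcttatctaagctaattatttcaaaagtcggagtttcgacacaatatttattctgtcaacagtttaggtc

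A STAT match is present in the C8a run and in neither of the others, and no match to the C/EBP, HNF1, HNF4 or interferon-response motif searched lies in any of the 3. Letters in a window say nothing of whether a factor binds there.

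Of the 6 genes that start complement activation, 3 rose and 3 did not pass, with a median log2 fold change of 0.30. With surrogate variables none of the 3 passed, at 0.09 to 0.15 (edgeR adjusted p = 0.0779 to 0.329). C1ra and C1s1, the proteases of the C1 complex, rose by 0.48 ± 0.14 (SE; edgeR adjusted p = 0.0219) and 0.31 ± 0.08 (0.0159). C1ra had 144, 263 and 348 CPM (lowest, median, highest) in untreated HFD and 262, 386 and 451 CPM in UCMSC-Exos. The untreated minimum was untreated HFD 3. C1s1 was at 429.8, 472 and 595 CPM in untreated HFD and at 465, 626 and 644 CPM in UCMSC-Exos, with 6 of 8 treated libraries above all untreated ones. Masp2, the protease that mannose-binding lectin uses to cut C4 and C2, rose by 0.50 ± 0.14, from a median of 123 to 187 CPM. Masp1, which activates Masp2, had a log2 fold change of 0.29 ± 0.10 (edgeR adjusted p = 0.0567). All 8 of its treated libraries exceeded the untreated median, and it passed without UCMSC-Exos 9 (0.029), without untreated HFD 3 (0.0452) and without untreated HFD 8 (0.0436).

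The lectins themselves did not pass. Mbl1 had medians of 140.2 and 175 CPM in the untreated and treated groups and a log2 fold change of 0.23 ± 0.12 (edgeR adjusted p = 0.158), which passed without UCMSC-Exos 9 (0.0221). Mbl2 varied widely among untreated livers, from 146 to 405 CPM, with untreated HFD 3 the highest. The groups overlapped, at a log2 fold change of 0.07 ± 0.18 (edgeR adjusted p = 0.816). Part of these counts is uncertain. The counting used no strand and left out reads that fell on exons of more than 1 gene, and 54.9% of the exon bases of Masp2 overlap Tardbp on the other strand, and 18.4% of those of C1s1 overlap the gene model Gm16567. Of the 100-base stretches of C1ra transcripts, 35.9% also occur in its copy C1rb or the model Gm18840.

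The convertase genes C2, C3, C4b and Cfb stood at the other end of the complement list. None of the 4 passed, and their median log2 fold change was 0.02. C3, the protein on which all complement pathways converge, was the most abundant of the 40 transcripts per length, at an untreated median of 1849 reads per kilobase of exon per 1 M reads (RPKM). Its level was 6963, 9511 and 13312 CPM in untreated HFD and 7813, 10156 and 11021 CPM in UCMSC-Exos. The treated range lay inside the untreated one, and the log2 fold change was 0.01 ± 0.14 (SE; edgeR adjusted p = 0.974). C4b, the mouse C4, was at 1826, 2272 and 2734 CPM in untreated HFD and at 1759.6, 2408 and 2959.8 CPM in UCMSC-Exos, a log2 fold change of 0.03 ± 0.11 (edgeR adjusted p = 0.847). C2, the protease partner of C4b, had medians of 31.1 and 34.2 CPM and a log2 fold change of 0.16 ± 0.08 (edgeR adjusted p = 0.181), and it passed without UCMSC-Exos 9 (0.0356). Cfb, factor B of the alternative pathway, was the least abundant of the 40, with medians of 6.28 CPM in untreated HFD and 5.27 CPM in UCMSC-Exos. Its log2 fold change of −0.14 ± 0.15 did not pass (edgeR adjusted p = 0.503).

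The counts of C2 and Cfb leave out shared reads. Both lie side by side on chromosome 17, and the read-through model Gm20547, on the same strand, and Zbtb12, on the other, cover 46.9% of the exon bases of C2, while Gm20547 covers 79.5% of those of Cfb. Reads that fell on both were not assigned. C4b shares 15.2% of its 100-base stretches with C4a, and reads that mapped to both places were not counted.

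None of the 4 regulator and inhibitor genes passed, at a median log2 fold change of 0.23. Cfi (factor I), the protease that inactivates C3b and C4b, had medians of 563 and 753 CPM and a log2 fold change of 0.34 ± 0.13 (SE; edgeR adjusted p = 0.0701). It passed without UCMSC-Exos 9 (0.00374) and without untreated HFD 5 (0.0354). C4bp, the C4b-binding protein that serves as cofactor of factor I, had medians of 787 and 948 CPM and a log2 fold change of 0.14 ± 0.12 (edgeR adjusted p = 0.406). Serping1, the C1 inhibitor, which also inhibits plasma kallikrein and factor XII, was at 391 to 1038 CPM in untreated HFD and at 668 to 1262 CPM in UCMSC-Exos. The fold change of 0.31 ± 0.15 on the log2 scale did not pass (edgeR adjusted p = 0.144), but it did without UCMSC-Exos 9 (0.0388). Cfp, properdin, stabilizes the alternative convertase and is made mainly by myeloid cells. It was the most variable of the 40 among untreated livers, with a coefficient of variation of 42.4%, from 19.8 CPM in untreated HFD 1 to 123 CPM in untreated HFD 3. No difference passed, with a log2 fold change of −0.02 ± 0.25 (edgeR adjusted p = 0.969).

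Among the 19 coagulation genes 17 rose and the median log2 fold change was 0.52. With surrogate variables 6 of these 17 passed (F5, F11, Klkb1, F13b, Proc and Serpind1) and the median was 0.15. The other 11 calls were lost in that fit, at log2 fold changes from 0.02 (Kng1; edgeR adjusted p = 0.875) to 0.22 (Plg; 0.0975), among them F7 at 0.21 (0.0512) and F12 at 0.13 (0.0728). Without untreated HFD 3 and 9, 14 of the 19 passed. The 6 clotting factor genes comprise F2 (prothrombin), F5 (factor V, the cofactor of factor X), F7 (factor VII, which with tissue factor starts clotting), F9, F10 and F11. All but F2 rose, and their median was 0.47. F11, the protease that activates factor IX, was at 30.5, 42.8 and 53.4 CPM (lowest, median, highest) in untreated HFD and at 48.6, 69.5 and 99.2 CPM in UCMSC-Exos. All treated libraries lay above the untreated median and 7 of 8 above the untreated maximum. The log2 fold change was 0.78 ± 0.12 (SE; edgeR adjusted p = 3.86e-04). F7 rose by 0.55 ± 0.13, from a median of 66.2 to 101 CPM. F5 rose by 0.52 ± 0.13, from a median of 536 to 804 CPM, with all 8 treated libraries above the untreated median.

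Calls for the vitamin K-dependent factors F9, F10 and F2 lay near the threshold. F10 rose by 0.43 ± 0.14 (SE; edgeR adjusted p = 0.0365), from a median of 246 to 358 CPM, and F9 by 0.35 ± 0.11 (0.0379), from 193 to 269.9 CPM. Each failed the test in 12 of the 17 fits without 1 library, with adjusted p up to 0.0803 for F10 (without UCMSC-Exos 5) and 0.0817 for F9 (without UCMSC-Exos 3). Without untreated HFD 3 and 9, F9 had an adjusted p of 0.0501. F2 was at 1014, 1382 and 1655 CPM in untreated HFD and at 1099.8, 1767 and 1924 CPM in UCMSC-Exos. Its log2 fold change of 0.32 ± 0.12 did not pass (edgeR adjusted p = 0.0611), but did without UCMSC-Exos 9 (0.00412), untreated HFD 3 (0.0417) or untreated HFD 5 (0.0415).

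The 3 contact genes all rose, at a median log2 fold change of 0.47. Klkb1, plasma prekallikrein, was at 63.4, 69.5 and 80.7 CPM in untreated HFD, the tightest untreated spread of the 40 at a coefficient of variation of 7.85%. In UCMSC-Exos it was at 62.6, 127 and 158 CPM. Of the treated libraries 7 lay above all untreated ones, and UCMSC-Exos 9 lay below all of them. The log2 fold change was 0.79 ± 0.12 (SE; edgeR adjusted p = 3.16e-04). Of its exon bases 43.2% overlap the model Gm45753 on the same strand, whose shared reads were not assigned. F12, factor XII, rose by 0.46 ± 0.14 (edgeR adjusted p = 0.0254), from a median of 436 to 596 CPM, and no longer passed without UCMSC-Exos 2 (0.0529) or 3 (0.0534). Kng1, kininogen, the source of bradykinin, had medians of 1110.0 and 1608 CPM. The rise of 0.47 ± 0.17 (edgeR adjusted p = 0.0494) no longer passed in 15 of the 17 fits without 1 library, with adjusted p up to 0.0995 without UCMSC-Exos 5, nor without untreated HFD 3 and 9 (0.083).

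The 4 genes of fibrin formation rose by nearly equal amounts, with log2 fold changes from 0.54 to 0.61. Fga, Fgb and Fgg encode the chains of fibrinogen, and F13b the carrier subunit of factor XIII, which crosslinks fibrin. Fga was at 1699, 2168 and 3136 CPM (lowest, median, highest) in untreated HFD and at 1961, 3366 and 4343 CPM in UCMSC-Exos. Fgb was at 1582, 2034 and 2901 CPM in untreated HFD and at 1727, 3124 and 3689 CPM in UCMSC-Exos. Fgg was at 958, 1400.5 and 2109 CPM in untreated HFD and at 1166, 2237 and 2611 CPM in UCMSC-Exos. In each chain 7 of 8 treated libraries lay above the untreated median, but untreated HFD 5 reached into the treated range, so that 6, 4 and 5 treated libraries exceeded it for Fga, Fgb and Fgg. The log2 fold changes were 0.56 ± 0.15 (SE; edgeR adjusted p = 0.0138), 0.54 ± 0.15 (0.0176) and 0.57 ± 0.16 (0.0168). F13b rose by 0.61 ± 0.12 (edgeR adjusted p = 0.00294), from a median of 153 to 262 CPM. F13b passed with surrogate variables, whereas the fibrinogen chains then had log2 fold changes of 0.19, 0.15 and 0.15 (edgeR adjusted p = 0.194, 0.335 and 0.324).

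On mm10 the fibrinogen genes form a cluster: Fgg spans chr3:83007724-83015049 and Fga chr3:83026076-83033627 on the forward strand, and Fgb chr3:83040141-83049863 on the reverse strand. Their upstream sequences are shown because the genes moved together. The runs are from the same RefSeq windows on GRCm38.p6, 5′ to 3′ on the strand of the gene, and end at the base before the gene's first base in the count table: chr3:83025903-83026075 (forward strand) for Fga, chr3:83049864-83050113 (reverse strand) for Fgb and chr3:83007474-83007723 (forward strand) for Fgg. Capitals mark matches to the C/EBP motif TTGCNNAA, on either strand, and to TTCNNNGAA.
Fga: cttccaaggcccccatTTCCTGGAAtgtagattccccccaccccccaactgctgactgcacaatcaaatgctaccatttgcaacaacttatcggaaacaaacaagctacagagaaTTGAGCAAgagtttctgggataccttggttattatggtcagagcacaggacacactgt
Fgb: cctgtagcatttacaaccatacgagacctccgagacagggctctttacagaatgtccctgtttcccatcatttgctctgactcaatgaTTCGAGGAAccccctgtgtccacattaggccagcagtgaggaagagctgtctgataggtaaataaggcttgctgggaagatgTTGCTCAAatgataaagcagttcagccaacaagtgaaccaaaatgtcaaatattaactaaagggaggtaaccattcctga
Fgg: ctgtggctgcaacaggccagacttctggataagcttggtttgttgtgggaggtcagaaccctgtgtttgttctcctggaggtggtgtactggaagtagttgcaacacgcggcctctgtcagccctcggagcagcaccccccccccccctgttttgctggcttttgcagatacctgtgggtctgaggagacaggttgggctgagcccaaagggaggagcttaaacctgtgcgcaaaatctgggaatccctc

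Fga and Fgb each hold 1 match to either motif, with the STAT match farther from the gene. Fgg holds neither in this window. Of the 40 genes, 31 had a RefSeq window of 250 bases before to 50 after the start. C2, C4b, Cfb, Cfi, Masp1, Serping1, Kng1, Plg and Proc had none. Searched on both strands, TTGCNNAA (C/EBP) was present in 10 of the 31 (32.3%), against 10.8% of all 32851 windows of that length. TTCNNNGAA (STAT) was present in 8 (25.8%), against 8.3%. The HNF1 motif GTTAATNAT was present in 4 (12.9%; C4bp, F13b, Hc and, downstream of the run shown, Fga), against 0.801%, and the HNF4 motif CAAAGTCCA in 0, against 0.475%. The interferon-response motif GAAANNGAA was in 1 (3.23%; Vtn), against 8.56%. No 2 of these motifs are the same letters, but matches may overlap. A member gene counted if any of its windows held a match, whereas the shares over all windows count single windows. The motif letters were also chosen with matches known, so these shares are no evidence of an excess in the members. They were not tested.

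Of the 4 anticoagulant genes 3 rose, at a median log2 fold change of 0.41. Serpind1, heparin cofactor II, a thrombin inhibitor, was at 219, 305 and 424 CPM in untreated HFD and at 285, 533 and 624 CPM in UCMSC-Exos. All treated libraries but UCMSC-Exos 9 lay above all untreated ones, and the log2 fold change was 0.67 ± 0.14 (SE; edgeR adjusted p = 0.0028). Proc, protein C, which as a protease inactivates factors V and VIII, rose by 0.50 ± 0.11 (edgeR adjusted p = 0.00502), from a median of 342 to 511 CPM. Serpinc1, antithrombin, rose by 0.33 ± 0.11 (edgeR adjusted p = 0.0388), from a median of 1185 to 1567 CPM. This call was lost in 13 of the 17 fits that left out 1 library, with adjusted p up to 0.0817 without UCMSC-Exos 5, and without untreated HFD 3 and 9 (0.0722). Moreover, 34.4% of the exon bases of Serpinc1 overlap Zbtb37 on the other strand. Pros1, protein S, the cofactor of protein C, which endothelial cells also make, was at 99.3, 112 and 144 CPM in untreated HFD and at 102, 122 and 138 CPM in UCMSC-Exos. Its groups overlapped fully, and its log2 fold change of 0.08 ± 0.08 did not pass (edgeR adjusted p = 0.496).

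Both fibrinolysis genes rose. Plg, plasminogen, the precursor of plasmin, was at 992, 1357 and 1666 CPM in untreated HFD and at 1109, 2049 and 2481 CPM in UCMSC-Exos, with a log2 fold change of 0.55 ± 0.14 (SE; edgeR adjusted p = 0.0113). Serpinf2, alpha-2-antiplasmin, which inhibits plasmin, was at 322, 455 and 609 CPM in untreated HFD and at 347, 667 and 876 CPM in UCMSC-Exos, with a log2 fold change of 0.52 ± 0.15 (edgeR adjusted p = 0.0185). In each, 6 of 8 treated libraries exceeded all untreated ones. Vtn, which binds the terminal complement complex and stabilizes the inhibitor of plasminogen activators, was at 1077, 1392 and 1950.5 CPM in untreated HFD and at 1203, 2247 and 2579 CPM in UCMSC-Exos. Its log2 fold change was 0.58 ± 0.14 (edgeR adjusted p = 0.00969), and with surrogate variables 0.18 (0.0922).

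**Figure D3:**
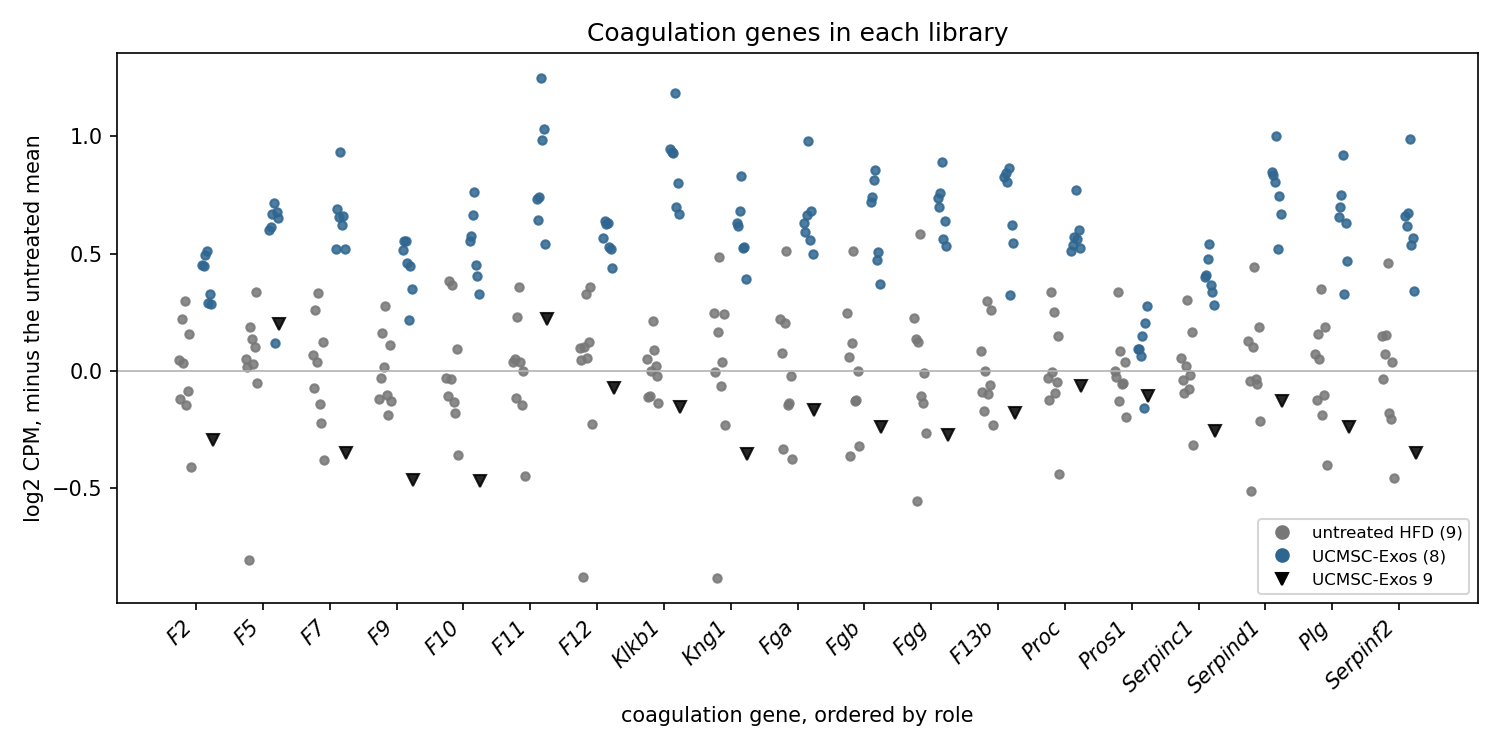
Points are the log2 CPM of each of the 19 coagulation genes in each library, minus the mean of the 9 untreated libraries, with UCMSC-Exos 9 as a black triangle. For F7, F11, F12, Klkb1, F13b, Proc and Serpind1 the other 7 treated libraries lie above every untreated one, and for Pros1 the groups overlap.

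Set side by side, coagulation genes were called higher more often than complement genes: 17 of 19 against 9 of 20, where 9.73% of all genes were called higher. The median log2 fold changes were 0.52 and 0.31, a difference of 0.21 that no test was run on, since genes are not replicates. The difference of medians was 0.19 to 0.25 over the fits that left out 1 library and 0.09 with surrogate variables. Within a library, the mean deviation from the untreated mean over complement genes minus that over coagulation genes ran from −0.15 to −0.04 in UCMSC-Exos and from −0.21 to 0.12 in untreated HFD, so the groups overlapped. The complement list was the more mixed one. Its terminal genes had a higher median (0.73) than any coagulation role (0.41 to 0.56), while its convertase genes had the lowest (0.02). The mean of the terminal genes minus that of the convertase genes was 0.65 to 1.14 in 7 treated libraries, above the untreated range of −0.31 to 0.36, and 0.07 in UCMSC-Exos 9, inside it. Without UCMSC-Exos 9, 14 of 20 complement and 18 of 19 coagulation genes passed, and the medians were 0.37 and 0.62. In that fit 15% of all genes were called higher.

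**Figure D4:**
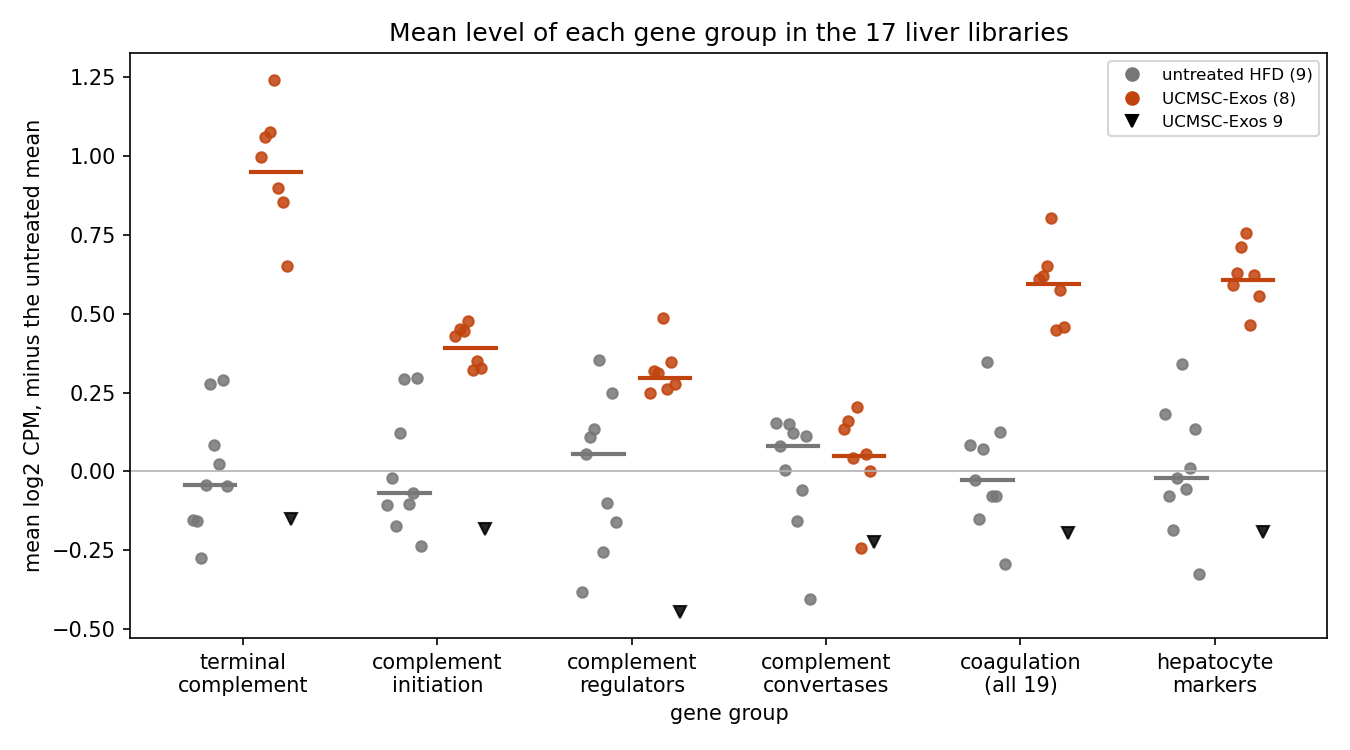
Each point is the mean over a gene group of log2 CPM minus the untreated mean in 1 library, with horizontal bars at group medians and UCMSC-Exos 9 as a black triangle. Terminal complement genes reach 0.65 to 1.24 in 7 treated libraries, coagulation genes 0.45 to 0.80 and hepatocyte markers 0.46 to 0.76, whereas convertase genes range from −0.24 to 0.20 in UCMSC-Exos against −0.41 to 0.15 in untreated HFD.

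Markers of hepatocytes moved with these genes. Of the 11 hepatocyte markers found in the table, 8 were called higher and 0 lower, with a median log2 fold change of 0.52, the same to 2 decimals as the coagulation median. In UCMSC-Exos 9 their mean lay at −0.19 from the untreated mean, as did the coagulation genes at −0.20 and the terminal genes at −0.15, while in the other 7 treated libraries it lay at 0.46 to 0.76. Relative to the hepatocyte mean of the same library, coagulation genes ranged from −0.10 to 0.05 in UCMSC-Exos and from −0.10 to 0.09 in untreated HFD. Terminal genes ranged from 0.04 to 0.49 in UCMSC-Exos and from −0.33 to 0.28 in untreated HFD. Convertase genes ranged from −0.71 to −0.46 in 7 treated libraries and stood at −0.03 in UCMSC-Exos 9, against −0.22 to 0.19 in untreated HFD. In whole liver RNA, a change in the share of hepatocytes and a change in RNA per hepatocyte cannot be told apart, and the part of either in these results was not tested.

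Other cell types differed between the groups as well. B and plasma cell markers had 3 of 7 tested higher and all 7 positive, at a median log2 fold change of 0.51. Summed, they were at 10.2 to 19.5 CPM in untreated HFD and at 57.3 to 137 CPM in UCMSC-Exos, and no treated library overlapped the untreated ones, UCMSC-Exos 9 included. Jchain, the joining chain of secreted antibodies, rose from a median of 1.47 to 12.0 CPM (log2 fold change 2.97 ± 0.26, SE; edgeR adjusted p = 1.24e-06). Erythroid markers had 3 of 5 higher and all positive, at a median of 0.95, with sums of 71.5 to 199.5 CPM in untreated HFD and 141 to 346 CPM in UCMSC-Exos. Stellate and fibroblast markers had 3 of 10 lower and 0 higher, at a median of −0.78. Of these calls, Des (−3.46 ± 1.11, SE) spanned 7.63 to 681 CPM in untreated HFD and 5.21 to 13.9 CPM in UCMSC-Exos. The mean log2 deviation of the stellate list was 0.56 in UCMSC-Exos 9 and −1.24 to −0.41 in the other 7 treated libraries. In untreated HFD it was −0.59 to 0.97, so the groups overlapped. Interferon-stimulated genes had 11 of 12 lower at a median of −1.35.

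Calls in the remaining lists stand beside 9.73% of all genes called higher and 10.4% called lower. Cholangiocyte markers had 1 of 9 lower, a share near that of all genes, and a median of −0.996. Their sums were at 137 to 558 CPM in untreated HFD and at 70.6 to 626 CPM in UCMSC-Exos, and their mean log2 deviation was 1.10 in UCMSC-Exos 9 against −2.05 to −0.69 in the other 7 treated libraries. Macrophage and Kupffer cell markers had 2 higher (Timd4 and Marco) and 3 lower (C1qa, C1qb and C1qc) of 12. Both shares exceed those of all genes but rest on few genes, and the 3 lower ones are the chains of C1q. The other 7 did not pass, and the median was −0.05. Endothelial markers had 1 of 10 higher, T and NK cell markers 1 of 8 and neutrophil markers 1 of 6 tested, with 0 lower in each. Platelet markers had 0 of 4 tested either way, with Gp1bb at 0 in all libraries. Acute phase genes, of which fibrinogen is a classical example in liver, had 1 higher and 1 lower of 12, also near the share of all genes, at a median of 0.10. The part of any of these lists in the results above was not tested.

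Of 79 other genes of the complement and coagulation pathways, 75 were tested, 21 were called higher and 11 lower, at a median log2 fold change of 0.13. Of all genes tested, 9.73% were called higher and 10.4% lower. The 6 of smallest p among the higher ones included 3 genes of alpha-1-antitrypsin, whose copies are so alike that their separate levels are uncertain: Serpina1e (log2 fold change 3.69 ± 0.42, SE; edgeR adjusted p = 2.94e-05), Serpina1c (1.37 ± 0.24) and Serpina1a (0.87 ± 0.15). C4a, the near-copy of C4b known as sex-limited protein, went from 14.1, 26.2 and 65.7 CPM (lowest, median, highest) in untreated HFD to 29.4, 173 and 240.2 CPM in UCMSC-Exos. Its log2 fold change was 2.46 ± 0.34 (edgeR adjusted p = 2.03e-04), beside 0.03 for C4b. Because 13.1% of the 100-base stretches of C4a also occur in C4b, part of its reads was not counted. Susd4, a membrane inhibitor of complement, went from a median of 4.53 to 29.9 CPM (log2 fold change 2.63 ± 0.35, edgeR adjusted p = 1.16e-04). Habp2, a plasma protease that can activate factor VII, rose by 0.49 ± 0.10 (edgeR adjusted p = 0.00206).

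The 6 of smallest p among the lower genes act at recognition, at the start of clotting and in fibrinolysis. The 3 chains of C1q, which macrophages make and which are also in the macrophage list above, fell: C1qa by 0.52 ± 0.10 (log2 scale ± SE; edgeR adjusted p = 0.00188), C1qb by 0.42 ± 0.09 and C1qc by 0.44 ± 0.12. C1qa was at 176, 207 and 271 CPM in untreated HFD and at 126, 138 and 179 CPM in UCMSC-Exos. Colec11, a collectin of the lectin pathway, fell by 0.60 ± 0.12 (edgeR adjusted p = 0.00258), from a median of 63.5 to 41.9 CPM. F3, tissue factor, which starts coagulation on binding factor VII, fell by 1.10 ± 0.30 (edgeR adjusted p = 0.0168), from a median of 5.21 to 2.09 CPM. Plau, the urokinase-type activator of plasminogen, fell by 1.09 ± 0.30 (edgeR adjusted p = 0.0191), from a median of 18.1 to 7.21 CPM.

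Per length, the 40 transcripts spanned a wide range in untreated livers. After C3 at 1849 RPKM came Fga (720.1), Vtn (686), Fgg (669) and Fgb (534), then C4b (399), and 23 of the 40 exceeded 100. The untreated libraries spanned 1354 to 2588 RPKM for C3, above the ranges of all the others. The ranges of Fga (564 to 1042), Vtn (531 to 961), Fgg (458 to 1007), Fgb (415 to 761) and C4b (321 to 480.1) each overlapped the next, while the lowest values of Fga and Vtn exceeded the highest of C4b. Within libraries, Fga exceeded Fgg, Fgg exceeded Fgb and Fgb exceeded C4b in 9 of 9 untreated livers. Vtn exceeded Fgb in all 9 but Fga in only 3 and Fgg in 5, so its place relative to Fga and Fgg varied. C8b and C6, with the highest log2 fold changes, were at 37.8 and 43.0 RPKM, ranks 32 and 31 of 40, and Klkb1 and F11 at 13.3 and 19.1 RPKM, ranks 38 and 37. In UCMSC-Exos C8b was at a median of 116 RPKM beside 243 for C8a and 209.9 for C8g, against 37.8 beside 125 and 127 in untreated HFD.

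**Figure D5:**
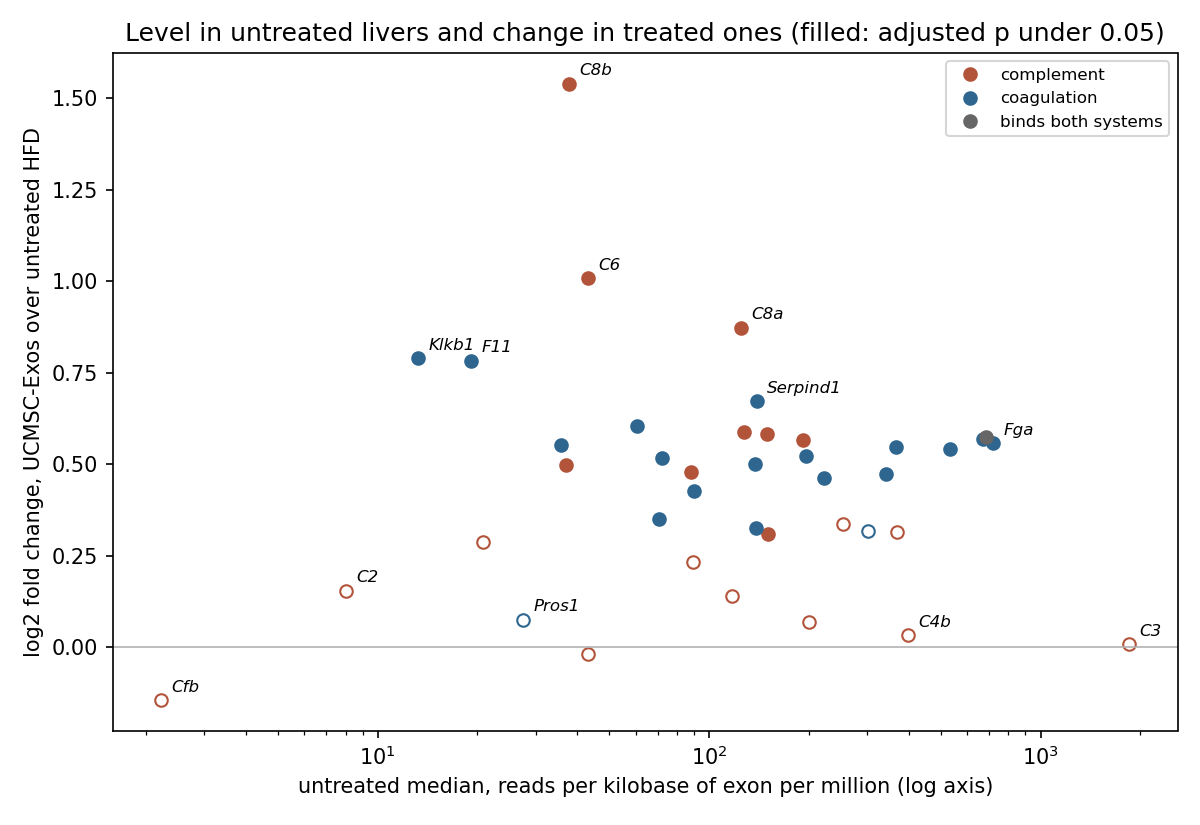
Each point is 1 of the 40 genes, with its untreated median in RPKM on a log axis and its log2 fold change between UCMSC-Exos and untreated HFD, filled where it passed. The highest changes, C8b and C6, were at 37.8 and 43.0 RPKM, and the most abundant gene, C3, was at a log2 fold change of 0.01.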

How the data were processed

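The data are a single deposited count table of liver RNA-seq. The submitters' processing notes name Subread 2.0.2 with featureCounts, HISAT2 2.2.1, fastp 1.3.3 and the build mm10. Per the file headers, the authors ran featureCounts 2.1.1 over exons of GENCODE vM25 in paired mode, unstranded, without multi-mapping reads. The versions differ and are given as found. Both mates of a pair are counted. The deposited counts are whole numbers and not normalized.

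Of 55401 gene IDs, 55141 matched a symbol, and 213 that share one were kept by ID. Library names in the labels tied columns to samples; 1 per-sample column without such a match was left out. Counts were fitted in R 4.3.3 with edgeR 4.0.16 (filterByExpr with a minimum count of 10, TMM scaling, robust quasi-likelihood F test, two-sided, Benjamini-Hochberg adjusted over 16238 genes, threshold 0.05). Standard errors are the fold change over the square root of F. CPM uses effective library size; deviations use log2 CPM with a prior count of 2. RPKM divides CPM by the exon length in the table. The biological coefficient of variation was 0.29, so spread between samples, not depth, limits precision. No pair of libraries within a group agreed within sampling noise. In the closest, UCMSC-Exos 2 and 3, the median squared difference was 3.69 times that expected from such noise.

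The members and gene lists were chosen with earlier results of these data known. All 40 members are named; of the other pathway genes, up to 6 of smallest p that passed in each direction. Roles and the marker lists were set by hand. Motif letters were chosen with matches known. The alternatives changed the scaling (upper quartile, RLE), the filter (none, or 1 CPM in at least 8 libraries) or the test: DESeq2 1.42.0, limma 3.58.1 voom with quality weights, up to 3 surrogate variables (sva 3.50.0), the replicate number as a block, leaving out each library, and leaving out untreated HFD 3 and 9. Leaving out UCMSC-Exos 9 with these was added after seeing the data. Exon overlap was computed from the exon coordinates in the count table. Shared 100-base stretches were computed on transcripts of GENCODE M21, of the same build. The steps were tested on simulated counts.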

Additional observations from a re-analysis of the deposited data

Results flagged for a closer look

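Within each group, the lowest and highest library of every gene was compared with its nearest neighbour by Dixon's gap test at the 95% level on log2 CPM. Of 80 gene and group pairs 28 stood apart, where chance gives about 5%; the genes are not independent, since 1 library can flag many.

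UCMSC-Exos 9 was the lowest treated library in 23 of them. Among complement genes its level was 262.5 CPM for C1ra, 464.8 for C1s1, 110.6 for Mbl1, 103.6 for Masp2, 454.1 for C8a, 314 for C9 (next lowest 706.6), 416.4 for Cfi, 667.9 for Serping1 and 574.3 for C4bp. Among coagulation genes its level was 1100 CPM for F2, 50.55 for F7, 142.6 for F9, 182.6 for F10, 387.3 for F12, 62.56 for Klkb1 (next lowest 110.7) and 843.8 for Kng1. For the fibrinogen chains it was 1961 CPM (Fga), 1727 (Fgb) and 1166 (Fgg), for the inhibitors 334.2 CPM (Proc), 1005 (Serpinc1) and 285.1 (Serpind1), and for Vtn 1203 CPM.

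Untreated HFD 3, the library with pancreas transcripts, was the lowest untreated library for C1ra at 144.2 CPM (next lowest 233.5), Serping1 at 391.5 CPM, F5 at 296.3 CPM and F12 at 222.1 CPM. Cfb was lowest in UCMSC-Exos 6, at 3.217 CPM. UCMSC-Exos 9 did not stand apart in every list. For B and plasma cell markers its mean log2 deviation from the untreated mean was 1.78, within the treated range of 1.41 to 1.90 and above the untreated maximum of 0.53. What sets these libraries apart was not tested.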

How the results depend on the processing

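No alternative gave a member called lower. RLE scaling, upper quartile scaling, no filter and at least 1 CPM in 8 libraries left 9 complement genes passing higher and 14 to 17 coagulation genes. The count of all genes passing, 3274 as reported, was 7711 with voom, 1549 with surrogate variables and 6716 without untreated HFD 3 and 9 and UCMSC-Exos 9, and it ran from 2005 (without UCMSC-Exos 3) to 5823 (without UCMSC-Exos 9) when 1 library was left out. It was 2086 without UCMSC-Exos 2. With surrogate variables 3 complement, 6 coagulation and 3 terminal genes passed, and the medians were 0.0584 for complement and 0.15 for coagulation, a difference of 0.0932; the cause was not tested. With voom 15 complement and 19 coagulation genes passed, where 47.5% of all genes did. DESeq2 gave 11 and 18, where 21.8% of all genes passed. Leaving out 1 library gave 8 to 14 complement, 12 to 18 coagulation and 5 to 6 terminal genes. Of the 8 convertase and regulator genes, 0 as reported, 1 passed with DESeq2, 1 with the replicate block, 3 with voom, 2 without untreated HFD 3 and 9 and UCMSC-Exos 9, and 0 to 3 when 1 library was left out.

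Signs turned for genes that had not passed. With surrogate variables the log2 fold change was −0.0036 for Mbl1, −0.0779 for Mbl2, −0.0264 for C2, −0.21 for C3, −0.18 for C4b, −0.0345 for Serping1 and −0.10 for C4bp. C3 was at −0.0048 with upper quartile scaling, −0.0637 without untreated HFD 3 and 9, −0.0239 without these and UCMSC-Exos 9, and from −0.0432 to 0.0752 when 1 library was left out. C4b was at −0.025 without untreated HFD 3 and 9 and from −0.0177 to 0.0859 when 1 library was left out. Cfp was at 0.28 with voom, 0.10 with the replicate block, 0.17 without untreated HFD 3 and 9, 0.25 without these and UCMSC-Exos 9, and from −0.14 to 0.13 when 1 library was left out.

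Numbers shared by the groups did not pair single samples. Over 8 shared numbers the correlations of same-numbered deviations were −0.171 to 0.238, 2 were over 0.1, and 0 of 8 samples correlated best with its own number. This check compares single numbers and cannot see a split over runs of numbers, such as that of C6 described above. With the replicate block 3029 genes passed, among them 11 complement, 17 coagulation and 6 terminal genes. F9 then had an adjusted p of 0.0519 by edgeR, and Masp1, Cfi and F2 passed at 0.0458, 0.0265 and 0.0281. At 32.9 M reads or more per library, counting error is largest for Cfb, with a median of 6.28 CPM in untreated HFD.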
